A study of Mus musculus with 12 samples.

Results

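MHC class II molecules present peptides to CD4 T cells, and 7 genes of this pathway were followed in RNA from B16F10 melanoma tumours. They encode the antigen-binding chains (H2-Aa, H2-Ab1 and H2-Eb1), the invariant chain (Cd74), the peptide editor H2-DM (H2-DMa and H2-DMb1) and the transcriptional coactivator Ciita. The genes were taken by symbol, after removal of a trailing hyphen and 3 digits from the names in the table. All 7 were found among its 50600 genes, and all 7 were among the 16993 genes with enough signal to be tested. Each library was made from a tumour of B16F10 cells, a pigmented mouse melanoma line, of which 50000 had been injected under the skin of wild-type C57Bl/6 mice. For 11 days the mice were gavaged daily with alisertib (25 mg/kg) plus navitoclax (100 mg/kg), with alisertib alone at the same dose, with navitoclax alone at the same dose, or with drug vehicle, and each group had 3 libraries. Alisertib blocks Aurora kinase A, a mitotic kinase, and navitoclax blocks BCL-2 family survival proteins. The libraries hold transplanted tumour cells together with whatever host cells had entered, and no label ties a library to its own animal, so each p reflects the variation among these samples alone, some or all of which may be technical.

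In a class II molecule, an alpha and a beta chain form a groove that binds peptides in endosomes. CD74 occupies the groove until cathepsins degrade it, and H2-DM then exchanges its remnant for peptides of the antigen. Dendritic cells and B cells make class II constantly. In macrophages and many other cells, including some tumour cells, interferon gamma can raise Ciita and, through it, the other class II genes. C57BL/6 mice carry a null allele of the H2-Ea alpha chain, so their H2-Eb1 chain lacks its usual partner.

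CIITA does not bind DNA itself but is recruited by factors on a conserved promoter module, in which an X box bound by the RFX complex lies upstream of a Y box bound by NF-Y. The stretches below are shown because these genes share the module while their RNA did not move alike: H2-Aa and H2-Eb1 followed each other over the libraries, H2-DMb1 followed them less closely, and H2-Eb2 was near 0. They come from RefSeq promoter windows (GRCm38.p6, 250 bases before to 50 bases after the start), which were found for 4 of the 7 genes; H2-Ab1, Cd74 and Ciita had no window. Capitals mark GNAAC, a core of the X box, and TGATTGG, the Y box, each read 5′ to 3′ on the strand of the gene. The H2-Aa stretch lies at chr17:34287852-34287919 (minus strand), H2-Eb1 at chr17:34305761-34305827 (plus strand) and H2-DMb1 at chr17:34153082-34153149 (plus strand). H2-Eb2, a paralogue of H2-Eb1 with almost no reads here, lies at chr17:34325528-34325594 (plus strand).
H2-Aa: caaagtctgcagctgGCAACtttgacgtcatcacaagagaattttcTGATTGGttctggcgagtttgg
H2-Eb1: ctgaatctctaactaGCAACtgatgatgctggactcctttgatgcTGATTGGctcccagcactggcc
H2-DMb1: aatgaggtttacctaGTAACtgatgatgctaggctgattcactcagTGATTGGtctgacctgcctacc
H2-Eb2: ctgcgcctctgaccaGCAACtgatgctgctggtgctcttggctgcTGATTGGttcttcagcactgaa
The gap between the motifs was 26 bases in H2-Aa, 25 in H2-Eb1, 26 in H2-DMb1 and 25 in H2-Eb2. The Y box began 50 bases before the start in H2-Aa, 61 in H2-Eb1, 63 in H2-DMb1 and 102 in H2-Eb2. Of 32817 mouse promoter windows of this length, TGATTGG occurred on either strand in 7.8%. Both motifs in the order shown, on either strand and 15 to 35 bases apart, occurred in 0.57% of these windows. Neither of the windows of H2-DMa held the Y box letters, which says only that these letters are not in those windows. H2-Eb2 carried the pair and had no more than 2 reads in any library. The class II genes H2-Oa and H2-Ob also carried it, with the Y box 45 and 59 bases before the start, and had at most 4 and 6 reads in a library.

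Values are normalized counts, that is, read counts per gene divided by 1 size factor per library, and 1 read was worth 0.764 to 3.62 of them. Sequencing depth was 26.83 to 36.75 M reads per library (M, mega). A pair of ribosomal RNA loci held 73.7% of combination 3 and 63.3% of vehicle 2, against 13.8 to 35.4% elsewhere, which left 7.08 and 9.86 M reads for other genes, against 21.9 to 27.6 M. Fold changes are differences of log2(value + 2) between group means with their standard error (SE), from limma fitted to all 12 libraries and all 16993 tested genes, with p-values adjusted over all of these genes by the Benjamini-Hochberg method and called at 0.05. They understate changes of low genes such as Ciita. Melanocyte genes were abundant everywhere, with a summed level of 8 genes of 482000 to 666000 in combination tumours, 572000 to 635000 with alisertib, 557000 to 650000 with navitoclax and 420000 to 562000 with vehicle.

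The antigen-binding chains differed more between replicate tumours than between treatments. H2-Aa (chr17:34282744-34287823, minus strand, GRCm38), the I-A alpha chain, stood at 89.7, 1098 and 163 in the combination libraries 1 to 3, at 34.9, 191 and 81.4 with alisertib, at 319, 17.4 and 1214 with navitoclax and at 34.96, 164 and 146 with vehicle. Combination 2 and navitoclax 3 lay far above every other library, navitoclax 2 lay lowest, and the ranges of all 4 groups overlapped. Navitoclax 3 was assigned to its group by its library code, because another part of its column name differs from the title of the sample. The partner of H2-Aa, H2-Ab1 (chr17:34257689-34269419, plus strand), the I-A beta chain, stood at 124, 1289 and 485 with the combination, 58.7, 267 and 102 with alisertib, 351, 21.3 and 1292 with navitoclax and 50.9, 306 and 145 with vehicle. H2-Eb1 (chr17:34305867-34316674, plus strand), the I-E beta chain, stood at 120.2, 1454 and 387 with the combination, 46.0, 206 and 108 with alisertib, 294, 16.6 and 1383 with navitoclax and 64.9, 316 and 165 with vehicle. Both beta chains had the same high pair and the same lowest library as H2-Aa.

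Against vehicle, the fold changes of the 3 chains in combination tumours were 1.40 ± 1.38 log2 for H2-Aa, 1.68 ± 1.32 for H2-Ab1 and 1.43 ± 1.37 for H2-Eb1 (± SE, n = 3 each), with adjusted p from 0.592 to 0.691. The 95% interval of H2-Ab1 ran from −1.23 to 4.59, so that these samples set only wide limits in both directions. With alisertib alone the 3 values were −0.20 ± 1.38 for H2-Aa, −0.17 ± 1.32 for H2-Ab1 and −0.57 ± 1.37 for H2-Eb1. With navitoclax alone they were 1.02 ± 1.38, 0.72 ± 1.32 and 0.37 ± 1.37, in the same order of genes. None passed the test, and leaving out combination 2 and navitoclax 3 together, a choice made after seeing the data, put the navitoclax values at −0.29, −0.56 and −1.04.

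The invariant chain gene Cd74 (chr18:60803848-60812652, plus strand) was the most abundant member per kilobase of exon in 9 of the 12 libraries. Its normalized count was 321, 3626 and 865 with the combination, 132, 617 and 270 with alisertib, 777, 76.7 and 2856 with navitoclax and 351, 907 and 562 with vehicle. The group means were 1604 ± 1772 with the combination, 339.9 ± 250.1 with alisertib, 1236 ± 1445 with navitoclax and 606.5 ± 280.6 with vehicle (SD, n = 3 each), so that in both navitoclax-containing arms the SD exceeded the mean. Combination 1 lay below every vehicle library although combination 2 was the highest of all. The fold changes against vehicle were 0.83 ± 1.19 log2 with the combination (adjusted p = 0.802), −1.0 ± 1.19 with alisertib (adjusted p = 0.73) and −0.02 ± 1.19 with navitoclax, and none was called. Without combination 2 the combination value was −0.10. Count models on recovered reads, which weigh the arithmetic mean, put Cd74 at 1.04 (edgeR) and 1.03 (DESeq2) with navitoclax, with adjusted p of 0.719 and 0.738.

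Ciita (chr16:10480059-10528418, plus strand), the coactivator of the class II genes, was the lowest member per kilobase of exon in every library. It stood at 19.4, 156 and 3.62 with the combination, 5.96, 24.5 and 10.3 with alisertib, 57.1, 2.37 and 222 with navitoclax and 9.99, 24.5 and 25.6 with vehicle. The value of combination 3 was 1 read and that of navitoclax 2 was 3 reads, so both lie where counting error alone is large. In combination 3, which had the fewest reads outside the ribosomal loci, Ciita ranked 11th of the 12 libraries while H2-Ab1 and H2-Eb1 ranked 3rd. The fold changes against vehicle were 0.37 ± 1.38 with the combination, −0.59 ± 1.38 with alisertib and 0.91 ± 1.38 with navitoclax, and none was called. Exons of Ciita overlap those of Dexi on the opposite strand, and the strand setting of the counting is not given in the sources used here, so reads of Dexi may be included.

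The genes of the peptide editor varied less. H2-DMa (chr17:34119541-34139101, plus strand), the alpha chain of H2-DM, stood at 56.4, 182 and 86.9 with the combination, 29.8, 67.2 and 36.5 with alisertib, 64.5, 30.05 and 269 with navitoclax and 28.0, 71.1 and 42.4 with vehicle. Its exons overlap Brd2 on the opposite strand. H2-DMb1 (chr17:34153072-34160230, plus strand), the beta chain, stood at 452, 745 and 398 with the combination, 320.0, 437 and 240 with alisertib, 182, 213 and 910 with navitoclax and 118, 115 and 276 with vehicle. For H2-DMb1 all 3 combination libraries lay above all 3 vehicle libraries, whereas alisertib 3 and 2 of the navitoclax libraries lay below vehicle 3.

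**Figure D1:**
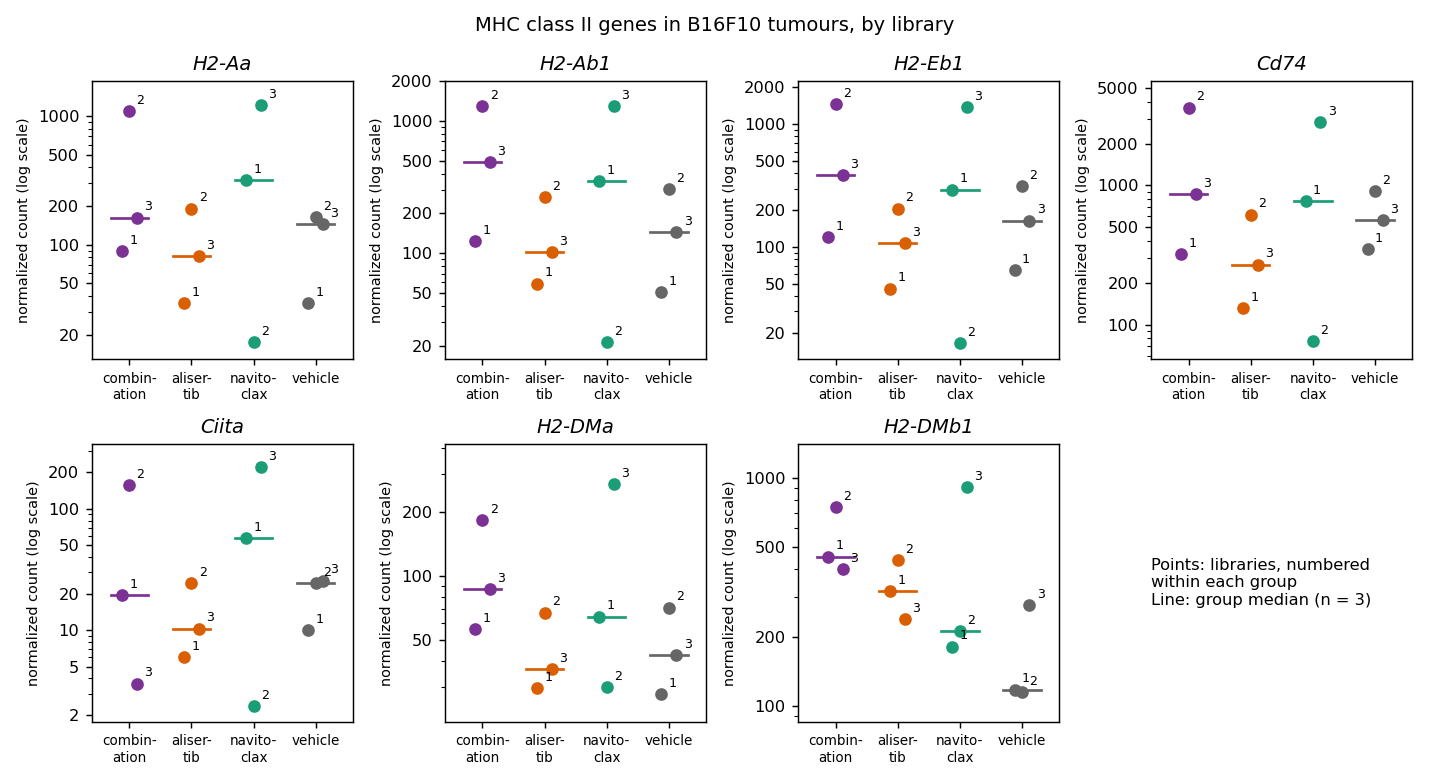
Normalized count of each of the 7 class II genes (vertical axis, log scale) in every library, by treatment group; points are libraries with their number and lines are group medians (n = 3 each). Combination 2 and navitoclax 3 are the 2 highest points in all 7 panels, and navitoclax 2 is the lowest in 5 of them.

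Against vehicle, H2-DMb1 differed by 1.71 ± 0.57 log2 in combination tumours, with a 95% interval of 0.46 to 2.95 and an adjusted p of 0.145. It was the member with the smallest p in this comparison and the one whose unadjusted interval left out 0, but it did not pass. Of all tested genes, 16.9% passed the unadjusted threshold in this comparison, and 9.73% lay higher in every combination library than in every vehicle library. The values were 1.04 ± 0.57 with alisertib (95% interval −0.20 to 2.29, adjusted p = 0.47) and 1.07 ± 0.57 with navitoclax (adjusted p = 0.704). The combination value of H2-DMb1 stayed between 1.44 and 2.12 over 24 alternative settings, with adjusted p from 0.0549 to 0.39. For H2-DMa the fold changes were 1.10 ± 0.71 with the combination, −0.07 ± 0.71 with alisertib and 0.86 ± 0.71 with navitoclax.

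In all, 0 of the 7 genes were called in the combination against vehicle, where 2.54% of all tested genes were called. The same count was 0 of 7 with alisertib (0.871% of all genes called) and 0 of 7 with navitoclax (0.0647%). edgeR and DESeq2 on recovered reads also called 0 of the 7 in each of these comparisons. By limma's unadjusted p, 1 of the 7 (H2-DMb1) passed 0.05 with the combination, where 16.9% of all tested genes passed, so that this count was near the share over all genes. With alisertib 0 of 7 passed (13% of all genes), and with navitoclax 0 of 7 (6.37%). The signs were positive for 7 of 7 members with the combination, with a median of 1.40 log2 against −0.01 over all tested genes. With alisertib 1 of 7 was positive (median −0.20, all genes 0.01), and with navitoclax 6 of 7 (median 0.86, all genes 0.01). The members follow one another across libraries and the arms share the vehicle libraries, so these signs are not separate observations.

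**Figure D2:**
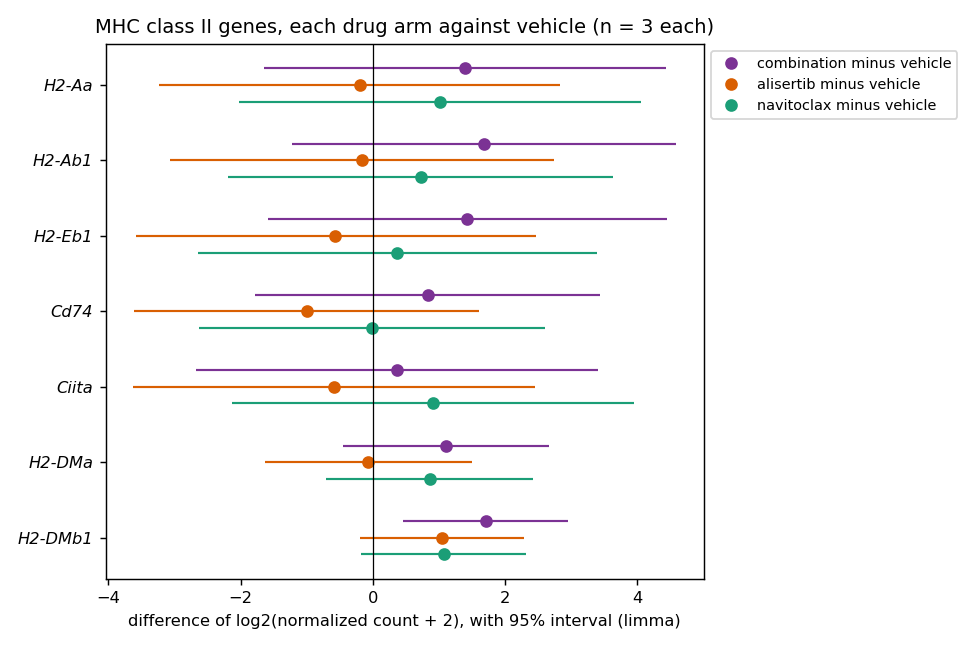
Difference of log2(normalized count + 2) between each drug arm and vehicle (horizontal axis) for the 7 class II genes, with 95% limma intervals as lines (n = 3 per group). All intervals reach 0 except that of H2-DMb1 in the combination, 0.46 to 2.95; the first 5 genes have intervals several log2 units wide.

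The comparisons among drug arms gave the same count. Between combination and alisertib, all 7 values were positive with a median of 1.60 log2; H2-Eb1 differed by 1.99 ± 1.37 and Cd74 by 1.83 ± 1.19 (adjusted p = 0.681 each). 0 of the 7 were called, as were 0 of all tested genes (percent called 0), while 596 genes passed the unadjusted threshold. Between combination and navitoclax the median was 0.64, with H2-Ab1 at 0.96 ± 1.32, and 0 of 7 were called against 1.19% of all genes. The interaction of the drugs, that is, the combination effect beyond the sum of the single-drug effects, had a median of 0.58, with Cd74 at 1.85 ± 1.68 (adjusted p = 0.544), and 0 of 7 were called against 0.00588% of all genes. Averaged over the presence of the other drug, alisertib gave H2-DMb1 a difference of 0.84 ± 0.40 (95% interval −0.04 to 1.72, adjusted p = 0.294), and 0 of 7 members were called, against 4.5% of all genes. Without navitoclax 3, the highest library for this gene and one without alisertib, the value was 1.21 with an adjusted p of 0.0499, so that 1 library decided this call. Averaged in the same way, navitoclax gave a median of 1.01 over the members and called 0 of them and 0 of all genes (percent called 0), with 669 genes past the unadjusted threshold.

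The spread of the members between libraries of the same group was large for their level. The SD within groups was 1.98 log2 units for H2-Aa, 1.90 for H2-Ab1, 1.97 for H2-Eb1, 1.71 for Cd74 and 1.96 for Ciita, against a median of 0.37 over all tested genes. It was higher than in 99.1 to 99.6% of the 1000 genes closest in mean level for these 5 members, and than in 90.6% for H2-DMa (SD 0.99) and 94.5% for H2-DMb1 (SD 0.80). Navitoclax 3 exceeded navitoclax 2, which received the same drug and dose, 69.8-fold for H2-Aa, 60.5-fold for H2-Ab1, 83.3-fold for H2-Eb1 and 37.2-fold for Cd74. The same ratio was 8.95 for H2-DMa and 4.28 for H2-DMb1. These ratios rest on navitoclax 3, the library matched by its code alone. Between the other navitoclax libraries, navitoclax 1 exceeded navitoclax 2 by 18.4-fold for H2-Aa, 16.4-fold for H2-Ab1, 17.7-fold for H2-Eb1 and 10.1-fold for Cd74. Without navitoclax 3, a choice made after seeing the data, the SD within groups was 1.73 for H2-Aa, 1.65 for H2-Ab1, 1.66 for H2-Eb1, 1.46 for Cd74 and 1.74 for Ciita, against a median of 0.39 over all tested genes. It was then 0.70 for H2-DMa and 0.52 for H2-DMb1. Within vehicle, the highest library exceeded the lowest 4.7-fold for H2-Aa and 2.59-fold for Cd74. The highest was vehicle 2 for both genes, the library with 63.3% of its reads in the ribosomal loci. For H2-Aa, vehicle 3 stood near it, at 146 against 164. Treatment group accounted for 10.3 to 18.1% of the variance of the 3 chains, Cd74 and Ciita, for 28.8% of H2-DMa and for 46.9% of H2-DMb1, with a median of 33.7% over all tested genes.

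**Figure D3:**
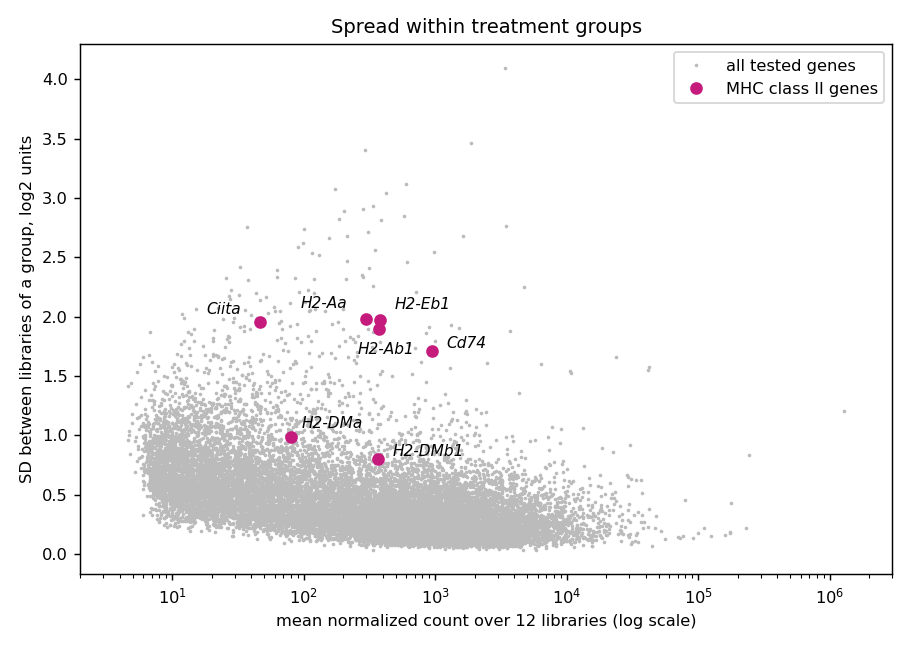
SD between libraries of the same treatment group (vertical axis, log2 units) against mean normalized count over 12 libraries (horizontal axis, log scale); grey points are all 16993 tested genes and coloured points the 7 class II genes. H2-Aa, H2-Ab1, H2-Eb1, Cd74 and Ciita lie between 1.71 and 1.98, above nearly all genes of like level, and H2-DMa and H2-DMb1 lie at 0.99 and 0.80.

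The members did not all follow each other equally. On the log2(value + 2) scale, Pearson's r over the 12 libraries was 0.991 between H2-Ab1 and H2-Eb1, 0.985 between H2-Eb1 and Cd74 and 0.972 between H2-Aa and H2-Ab1. H2-DMb1 stood apart, with r from 0.502 (Cd74) to 0.716 (H2-DMa). Against the mean of the other 6 members, H2-DMb1 had r = 0.61, and r = 0.087 without combination 2 and navitoclax 3, whereas H2-Aa had 0.982 and 0.965. Ciita lay between them, with 0.842 and 0.553. Per kilobase of exon, the ratio of H2-Eb1 to H2-Ab1 stayed between 1.02 and 1.68 in all libraries, while that of H2-DMb1 to H2-Ab1 ran from 0.574 to 15.2. H2-DMb1 was the most abundant member per kilobase in combination 1, alisertib 1 and navitoclax 2, which are the libraries with the lowest H2-Aa, H2-Ab1 and H2-Eb1 of their groups. These correlations describe 12 libraries that fall into 4 groups and share 2 extreme ones, so no p is given.

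Other class II genes were at or near the floor. H2-Ea-ps, the null alpha chain locus of this strain, had 0 reads in all 12 libraries, which allows up to 3 reads per library, or normalized counts of 2.29 to 10.9, for counting error only. H2-Oa and H2-Ob, the chains of the H2-DM inhibitor H2-O, had at most 4 and 6 reads in a library. H2-DMb2, a close paralogue of H2-DMb1 whose reads the counting could have split between the genes, stood at 4.62, 11.9 and 18.1 with the combination, 6.81, 13.0 and 5.62 with alisertib, 13.2, 2.37 and 13.5 with navitoclax and 1.998, 7.351 and 4.413 with vehicle. It was the tested gene among these 5 and was not called in any arm (0.98 ± 0.61 log2 with the combination, adjusted p = 0.475).

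Among genes that process antigen and CD74, 2 proteases rose. Of 9 processing genes, 2 rose with the combination against vehicle, 1 with alisertib and 0 with navitoclax, and none fell. Of all tested genes, 1.38%, 0.553% and 0% rose in these comparisons. The median fold changes of the 9 genes were 1.2, 0.6 and 0.08 log2. Ctss, cathepsin S, which cleaves CD74 in antigen-presenting cells, stood at 1461, 2616 and 3384 with the combination against 163, 542 and 405 with vehicle. It rose by 2.82 ± 0.55 log2 (adjusted p = 0.0238). All its combination libraries lay above all its vehicle libraries, as did those of 9.73% of all tested genes. With alisertib it stood at 820, 1652 and 838, a difference of 1.66 ± 0.55 (adjusted p = 0.229), and with navitoclax at 699, 459 and 1650, a difference of 1.29 ± 0.55 (adjusted p = 0.704). Ctsb, cathepsin B, a lysosomal protease of most cells, rose by 1.2 ± 0.21 with the combination (adjusted p = 0.0151) and by 1.09 ± 0.21 with alisertib (adjusted p = 0.0391). Averaged over navitoclax, alisertib raised Ctss by 1.60 ± 0.39 (adjusted p = 0.0424), Ctsb by 0.98 ± 0.15 (adjusted p = 0.00469) and Ctsd, cathepsin D, by 0.94 ± 0.21 (adjusted p = 0.0327). In that comparison 2.62% of all tested genes rose. Over the processing, transcription, interferon, costimulation and other class II genes together, the calls with the combination numbered 3, but 0 without vehicle 1, 0 without combination 2 and navitoclax 3, 1 without combination 2 and 0 when only the compared groups were fitted. With alisertib they numbered 2, but 0 without vehicle 1, vehicle 2, combination 2 or any 1 of the alisertib libraries. For alisertib averaged over navitoclax they numbered 4, but 2 without vehicle 1, vehicle 3, combination 1, navitoclax 1, navitoclax 2 or any 1 of the alisertib libraries. With all libraries, these comparisons called 2.54%, 0.871% and 4.5% of all tested genes, in the same order.

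Genes of factors that act on class II promoters and of their repressors were not called: 0 of 12 passed in any drug arm, with medians of −0.13, 0.03 and 0.07 log2 for the combination, alisertib and navitoclax. Rfx5, the subunit of the RFX complex that contacts the X box, stood at 846, 922 and 825 with the combination and 780.2, 652 and 606 with vehicle (0.35 ± 0.14, adjusted p = 0.218). Kdm6b, a histone demethylase, had −0.34 ± 0.14 with the combination (adjusted p = 0.25), and Ezh2, the methyltransferase of the opposing mark, −0.51 ± 0.26 (adjusted p = 0.346). Rfx5 and Kdm6b were the 2 of these 12 genes past the unadjusted threshold with the combination, which 16.9% of all tested genes passed, so this count was near the share over all genes. Over the same pathway lists together, the combination count was 6 by DESeq2, which called 1245 of the 16993 tested genes. The count was 7 (6 higher and 1 lower) when the ribosomal share entered the model, where 2561 genes were called. The main fit called 431 genes and counted 3 in these lists.

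Upstream, in the route from interferon gamma to Ciita, 1 of 9 tested genes rose with the combination (1.38% of all genes rose) and 1 with alisertib (0.553%), and 0 were called with navitoclax. That gene was Ifngr2, a chain of the interferon gamma receptor, at 1364, 1501 and 1484 with the combination, 1363, 1505 and 1386 with alisertib, 1008, 1005 and 1245 with navitoclax and 936, 823 and 908 with vehicle. It rose by 0.70 ± 0.13 log2 with the combination (adjusted p = 0.0169) and by 0.67 ± 0.13 with alisertib (adjusted p = 0.0348), and all libraries of both arms lay above vehicle, as did those of 9.73% of all tested genes with the combination and 10.7% with alisertib. Its pattern was unlike that of the members, with r = 0.334 to their mean. Ifng itself had at most 4 reads in a library. The next 3 genes by p were Spi1, Socs1 and Irf1. Spi1, the myeloid transcription factor PU.1, differed by 1.72 ± 0.53 with the combination (adjusted p = 0.121), Socs1, a feedback inhibitor of the receptor, by 1.23 ± 0.60 and Irf1, an interferon-induced factor acting on the Ciita promoter, by 0.71 ± 0.43, and none of these passed. Of 5 tested costimulation genes 0 were called in any arm, and only Cd274 with navitoclax passed the unadjusted threshold, as did 6.37% of all tested genes with navitoclax. Cd80, a ligand of CD28, had 0.62 ± 0.29 with the combination and Icosl, the ICOS ligand, −0.40 ± 0.25. Cd274, encoding PD-L1, had 0.47 ± 0.39 with the combination, 0.62 ± 0.39 with alisertib and 1.0 ± 0.39 with navitoclax (adjusted p = 0.614, 0.53 and 0.704).

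Other genes were ranked by how closely they followed the members over the 12 libraries. Likeness was Pearson's r of log2(value + 2) with the mean of the scaled members, among 12606 other genes with a mean level of at least 50. The 10 closest were Psmb8 (r = 0.954), Irf8 (0.944), H2-D1 (0.939), Gbp3 (0.939), Psmb9 (0.933), Zbp1 (0.926), Gbp7 (0.926), Ly6e (0.916), H2-Q6 (0.915) and Pld4 (0.911). Psmb8 and Psmb9 encode immunoproteasome subunits, H2-D1 and H2-Q6 MHC class I heavy chains, the Gbp genes interferon-induced guanylate-binding proteins and Irf8 a transcription factor of myeloid cells. Without combination 2 and navitoclax 3 their r lay between 0.772 (Gbp7) and 0.925 (H2-Q6). Psmb8 stood at 519.5, 1522 and 492 with the combination, 156, 430.2 and 216 with alisertib, 293, 78.3 and 3167 with navitoclax and 206, 583 and 382 with vehicle, with the same high pair and the same lowest library as H2-Aa. None of the 10 was called against vehicle in any arm, and H2-Q6 belongs to a family of near-identical class I genes, so its value is uncertain.

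The same 2 libraries recurred in the interferon-gamma response list. Combination 2 and navitoclax 3 held the 2 highest values for 7 of 7 members and for 12 of 13 tested response genes, against 312 (1.84%) of all 16993 tested genes. The shares were 3 of 9 genes in the route from interferon gamma to Ciita and 1 of 5 costimulation genes. They were 1 of 12 macrophage markers and 1 of 4 general leukocyte markers. They were 0 of 9 processing, 12 promoter-factor, 2 tested T cell and 8 melanocyte genes. The T cell genes too low to be tested went the other way. Cd3d, Cd3e, Cd3g, Cd8a, Cd8b1 and Trac each had their 2 highest normalized counts in this pair. They had at most 36 reads in a library and lie outside the share over tested genes. This pair ranked 13th of the 66 possible pairs of libraries by number of genes, with a median of 0.915% per pair. Navitoclax 2 was lowest for 5 of 7 members and 8 of 13 response genes, against 7.31% of all genes. The pair was singled out after the members' values had been seen, and these counts are a description with no test.

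Summed over 14 interferon-gamma response genes, the level was 3663, 10034 and 822 in combination 1 to 3, 1356, 2751 and 1197 with alisertib, 2571, 712 and 16734 with navitoclax and 1150, 1259 and 2091 with vehicle. The sum of H2-Aa, H2-Ab1, H2-Eb1 and Cd74 was 654, 7467 and 1900 with the combination, 271, 1282 and 561 with alisertib, 1741, 132 and 6744 with navitoclax and 501, 1693 and 1018 with vehicle. Both sums were highest in the same pair and lowest in navitoclax 2. They parted in combination 3, where the class II sum was the third highest and the response sum the second lowest. Combination 3 had the fewest reads outside the ribosomal loci.

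**Figure D4:**
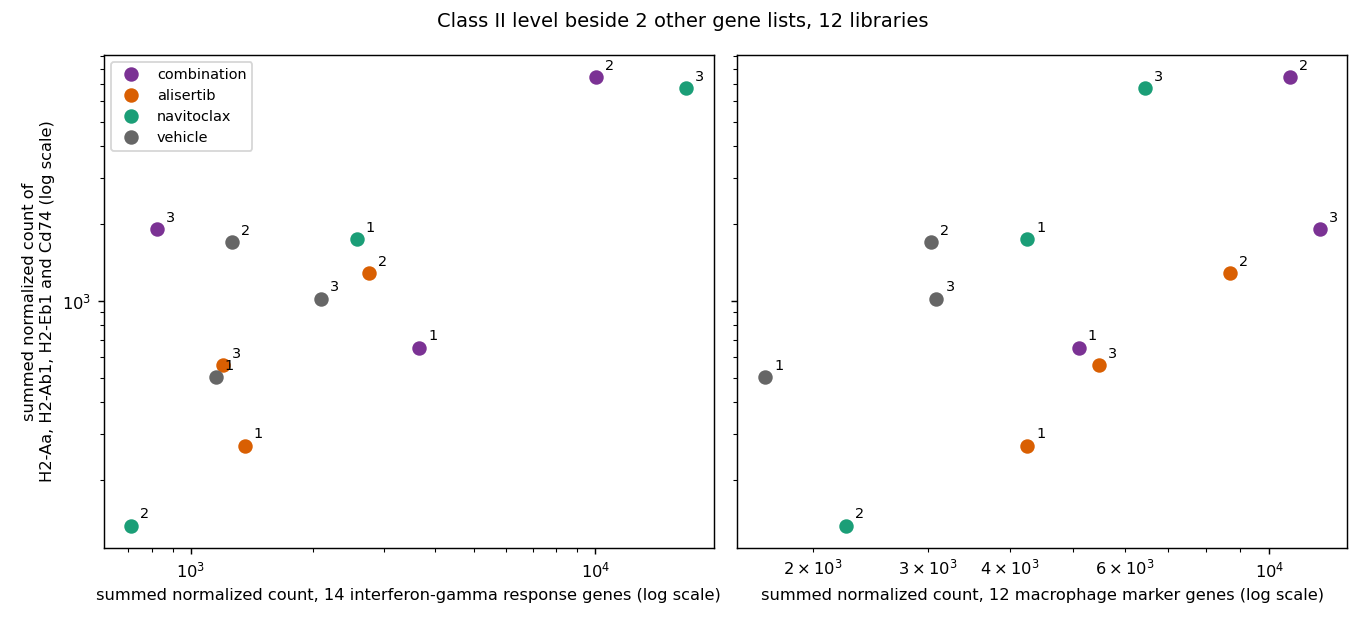
Summed normalized count of H2-Aa, H2-Ab1, H2-Eb1 and Cd74 (vertical axis, log scale) against that of 14 interferon-gamma response genes (left) and 12 macrophage markers (right), both log scales; points are libraries, numbered within groups. Combination 2 and navitoclax 3 lie at the top in both panels, and combination 3 has the highest macrophage sum (11939) with a class II sum of 1900. Combination 3 had 73.7% of its reads in the ribosomal loci, and its macrophage markers did not move alike.

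Markers of host cells that carry class II moved with the treatments in part. The summed level of 12 macrophage markers was 5105, 10733 and 11939 with the combination, 4255, 8696 and 5478 with alisertib, 4255, 2247 and 6440 with navitoclax and 1690, 3036 and 3092 with vehicle. All combination and all alisertib libraries lay above all vehicle libraries, as did those of 9.73% and 10.7% of all tested genes. The markers did not move alike. In combination 3, with 73.7% of its reads in the ribosomal loci and 7.08 M others, C1qa, C1qb and C1qc stood at 2211, 2718 and 3963. There Cd68, Fcgr1, Mertk and Itgam lay below vehicle 3, with Cd68 at 221 against 263, and the other markers lay above it. Of the 12 markers, 1 rose with the combination (Ms4a7, by 2.49 ± 0.51 log2, adjusted p = 0.0322) and 0 passed with alisertib or navitoclax. Of all tested genes, 1.38% rose with the combination. The signs were positive for 12, 12 and 11 of the 12 markers with the combination, alisertib and navitoclax. Averaged over navitoclax, alisertib raised 2 of the 12, Mrc1 (the mannose receptor) by 1.61 ± 0.37 (adjusted p = 0.0338) and Ms4a7 by 1.56 ± 0.36 (adjusted p = 0.0367). In that comparison 2.62% of all tested genes rose. Of 4 general leukocyte markers, 1 rose with the combination (Laptm5, by 1.94 ± 0.42, adjusted p = 0.0377), and the same gene rose by 1.18 ± 0.30 with alisertib averaged over navitoclax (adjusted p = 0.049). Their part in the class II levels was not tested, and in bulk RNA fewer cells of a type and less RNA per cell cannot be told apart.

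The class II sum was also set against the leukocyte markers. Per 100 units of the 4 leukocyte markers it was 68.3, 442 and 99.2 with the combination, 33.0, 79.7 and 63.2 with alisertib, 175, 31.6 and 441 with navitoclax and 199, 215 and 210 with vehicle. The vehicle libraries lay close together on this ratio and all alisertib libraries lay below them. The closeness depends on the markers chosen. Coro1a was 515 of the leukocyte sum of 787 in vehicle 2, but 88.9 of 252 in vehicle 1 and 141 of 484 in vehicle 3. Per 100 units of the 12 macrophage markers, the class II sum was 29.7, 55.8 and 32.9 in vehicle 1 to 3. The denominator of the leukocyte ratio was itself higher with alisertib, and 42.3% of all tested genes were lower without overlap on that ratio. The log2 ratio of alisertib to vehicle was −1.83 for the class II sum, −1.32 for the median of all tested genes and 0.17 for the median of the macrophage markers, and 10.4% of tested genes lay lower than the class II sum.

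Markers of other antigen-presenting cells and of T cells differed in level. The B cell gene Ms4a1 had at most 1 read in a library, although Cd22, listed with it and also made by microglia, rose by 2.69 ± 0.47 log2 with the combination (adjusted p = 0.0151). Of 10 dendritic cell genes, 4 had enough signal to be tested and 0 of these were called in any arm. Flt3, Xcr1 and Clec9a, which are among the genes more restricted to dendritic cells, had at most 10, 8 and 12 reads in a library. The tested genes Zbtb46 and Batf3 stood at 245 to 362 and 63.8 to 221 over the 12 libraries. Itgax, the integrin CD11c, which macrophages also make, stood at 95.2, 278 and 224 with the combination, 72.3, 131 and 43.0 with alisertib, 73.6, 88.6 and 180 with navitoclax and 29.0, 44.1 and 54.7 with vehicle. Its differences from vehicle were 2.08 ± 0.51 log2 with the combination (adjusted p = 0.0577) and 1.31 ± 0.51 with navitoclax (adjusted p = 0.704), and its part in the class II levels was not tested. Of 8 T cell genes, 2 were tested (Cd4 and Lck) and 0 were called in any arm against vehicle. Lck, a kinase of the T cell receptor pathway, fell by 1.10 ± 0.20 log2 with alisertib averaged over navitoclax (adjusted p = 0.0135), where 1.88% of all tested genes fell. It stood at 19.4, 34.1 and 21.7 with the combination and 15.3, 21.4 and 21.5 with alisertib, below every library given navitoclax alone (48.0, 40.3 and 57.1) or vehicle (49.9, 53.9 and 44.1). Cd4 went the other way in the same comparison, with 0.70 ± 0.39 (adjusted p = 0.389). Vehicle 1 to 3 had 50, 22 and 50 reads of Lck but 3, 1 and 2 of Cd3e, a T cell receptor chain gene too low to be tested. Whether Lck follows T cells here was not tested. Cd8a, of cytotoxic T cells and too low to be tested, was highest in the 2 libraries with the most class II RNA, with 36 reads in combination 2 and 30 in navitoclax 3, against at most 6 elsewhere. Cd3d, Cd3e, Cd3g, Cd8b1 and Trac, also too low to be tested, had their 2 highest normalized counts in the same libraries. These genes had at most 24 reads in a library. The tested genes Cd4 and Lck did not share this order. Cd4 was highest in combination 2 (34.9), but navitoclax 3 (16.7) lay below alisertib 2 (18.3) and combination 3 (18.1). Lck was highest in navitoclax 3 (57.1), but combination 2 (34.1) lay below every vehicle library. Skeletal muscle genes reached a sum of 85117 in navitoclax 1 and at most 1068 elsewhere, and navitoclax 1 ranked 3rd to 6th of the 12 libraries for 6 members and 10th for H2-DMb1.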

How the data were processed

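RNA of 12 tumour libraries was analysed, 3 per treatment, grouped by the treatment in each sample's labels; replicates were numbered in accession order, so a shared number pairs nothing. The column of navitoclax 3 was matched to its sample by library code, since another part of its name differed. The deposited values are a normalized signal per gene and library: 100% of each column could be divided by 1 constant into whole reads (tolerance 0.01), so the authors had scaled counts by a size factor. Per the submitters' processing notes, HISAT2 2.0.6, featureCounts of Subread 1.5.1 and DESeq2 were used; the labels' protocols describe directional libraries depleted of ribosomal RNA. The annotation release is not given in the sources used here; coordinates and exon lengths came from GENCODE M21 (GRCm38).

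Genes reaching a value of 10 in 3 or more libraries were fitted with limma 3.58.1 (R 4.3.3) on log2(value + 2), with a mean per group over all 12 libraries and robust, trended variance moderation, and 8 contrasts were adjusted by the Benjamini-Hochberg method (0.05). edgeR 4.0.16, DESeq2 1.42.0 and limma-voom were run on recovered whole reads, beside other pseudocounts (0.5 and 8), filters, TMM scaling, a ribosomal covariate and each library left out. The scripts were tested on simulated reads. Gene lists and members were chosen with earlier results of these data known. Named were all members, every called gene of the pathway lists and otherwise the 3 with the smallest p, the 10 genes most like the members, and defining markers of each cell type, of which 1 is not reported here; Psmb8 is given in full as the first of these.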

Additional observations from a re-analysis of the deposited data

How the results depend on the processing

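No paired analysis was possible because the labels number no replicates. The count of members called was 0 in the 8 contrasts under all settings run, except that leaving out navitoclax 3 gave 1 (H2-DMb1) for alisertib averaged over navitoclax (range 0 to 1 over the libraries left out). Of the 21 fold changes of members against vehicle, those that changed sign did so without passing the test under any setting. Without combination 2 and navitoclax 3, a choice made after seeing the data, the combination value was −0.10 for Cd74 and −0.91 for Ciita, and the navitoclax value was −0.29 for H2-Aa, −0.56 for H2-Ab1, −1.04 for H2-Eb1 and −0.36 for Ciita. For alisertib, limma-voom gave 0.32 for H2-Aa, 0.54 for H2-Ab1 and 0.34 for H2-DMa, and leaving out vehicle 2 and combination 3 gave 0.19, 0.44 and 0.27. Cd74 with navitoclax, near 0, became 1.04 with edgeR, 1.03 with DESeq2, 0.89 with limma-voom, 0.01 with a pseudocount of 8, 0.33 without vehicle 2 and combination 3 and 0.05 with the ribosomal covariate. With single libraries left out, the combination value ran from −0.10 to 1.65 for Cd74 and from −0.91 to 1.5 for Ciita. The alisertib value ran from −0.90 to 0.39 for H2-Aa, from −0.83 to 0.44 for H2-Ab1 and from −0.39 to 0.27 for H2-DMa. The navitoclax value ran from −0.29 to 2.69 for H2-Aa, from −0.56 to 2.34 for H2-Ab1, from −1.04 to 2.07 for H2-Eb1, from −1.19 to 1.40 for Cd74 and from −0.36 to 2.48 for Ciita. The cause of these changes was not tested. Over the settings the count of all genes called ran from 66 to 2561 with the combination (main 431), from 49 to 1241 with alisertib (148) and from 0 to 87 with navitoclax (11). TMM scaling moved the median of all genes by at most 0.02 log2. Ciita rests on 1 to 3 reads in 2 libraries, and reads of overlapping or paralogous genes limit Ciita, H2-DMa and H2-DMb1.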

Other observations

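Of the 5 members with the widest spread, all had their lowest value in navitoclax 2, a library with 27.3 M reads outside the ribosomal loci, a melanocyte sum of 575000 and a dendritic cell sum of 492, all within the range of the other libraries. That dendritic cell sum held Zbtb46 at 293, Batf3 at 104 and Itgax at 88.6. The more restricted genes Flt3, Xcr1 and Clec9a had 0 reads in navitoclax 2, as in vehicle 2. They had 10, 3 and 8 reads in navitoclax 1 and 8, 8 and 12 in navitoclax 3. The leukocyte marker sum of navitoclax 2 (417) was the second lowest of the 12 libraries after vehicle 1. Its macrophage sum (2247) was the lowest among drug-treated libraries, and its interferon-gamma response sum (712) was the lowest of all. Their part in its class II levels was not tested. H2-DMb1 did not follow them there: at 213 it was higher than vehicle 1 and vehicle 2, and H2-DMb1 was the most abundant member per kilobase in that library, at 127 against 45.7 for Cd74 and 8.31 for H2-Ab1. In navitoclax 3 the order was Cd74 1701, H2-Eb1 711, H2-DMb1 541 and H2-Ab1 503.

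Nlrc5, which encodes the class I counterpart of CIITA, ranked 11th in likeness to the members (r = 0.906, and 0.776 without combination 2 and navitoclax 3); it lies outside the rule for named genes and was chosen after its values were seen. It stood at 1975, 5390.2 and 1306 with the combination, 730.2, 1596 and 812 with alisertib, 937, 191 and 4554 with navitoclax and 947, 1061 and 1213 with vehicle. Its fold changes against vehicle were 1.17 ± 0.90, −0.12 ± 0.90 and −0.19 ± 0.90 log2 (± SE, adjusted p from limma 0.583, 0.964 and 0.939), and its highest and lowest libraries were those of Cd74. Ido1, an interferon-induced enzyme in the same response list, was near the floor, with a highest normalized count of 2.81.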
